A study of Rattus norvegicus with 6 samples.

Results

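The subject is 1 of the 6 two-colour arrays of a rat study of tickling, the array that set salivary gland RNA of tickled rats (Cy5) against salivary gland RNA of rats given light touch (Cy3). It was chosen by its title alone, and it is described over the 10716 genes that had a value on it. The animals were male Wistar rats, an outbred laboratory strain, 60 days old at sampling. Tickled rats were given a mimic of rough play in alternating 15 s of rest and 15 s of stimulation, on weekdays over 4 weeks. Light-touched rats were given a light touch, a stimulus set against tickling. Rats with no stimulus were on the other side of the second salivary array, which serves here as context. All were housed singly behind screens from 21 days of age. Tickling evokes ultrasonic calls that are taken as a sign of positive emotion and that light touch does not in general evoke, and the comparison asks which salivary gland genes differ between rats given these stimuli.

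The study lists 4 animals per condition and 1 array per comparison, and does not say whether an array holds RNA of 1 rat or of several. With a single array in a single dye orientation, neither p-values nor a spread between animals can be had, and genes are described by the size of their log2 ratio, tickled over light touch. A log2 ratio of 1 is 2-fold. The labels name the tissue of this array as salivary glands in 1 field and hypothalamus as the source of the RNA in another. Of 16 defining genes of parotid, submandibular and mucous salivary cells that the array annotation holds, 14 had a value on the light-touch salivary array and 15 on the no-stimulus salivary array. On the striatal arrays 5 had a value, and on the leukocyte arrays 3 to 4. Muc19 and Muc5b, mucins of mucous cells, are not among the annotated genes.

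The rat has 3 major pairs of salivary glands. The parotid gland makes a watery saliva rich in amylase and other enzymes, the submandibular gland has granular ducts that store kallikreins and growth factors, and the sublingual gland is mostly mucous. All of them receive sympathetic and parasympathetic nerves, which drive the release of protein and of fluid, and the glands lie among fat, blood vessels, connective tissue and lymph nodes. In bulk RNA, more cells of a type and more RNA per cell cannot be told apart, nor can a change in a gland from a change in the share of that gland in the sample.

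Tickled and light-touched glands were close for most genes. The median log2 ratio over 10716 genes was -0.00, with the 5th percentile at -0.29 and the 95th at 0.27. At 2-fold, 20 genes (0.187%) were higher and 7 (0.0653%) were lower in tickled glands. At 1.5-fold, a log2 ratio of 0.58, 94 genes (0.877%) were higher and 80 (0.747%) lower. The genes just inside the 1.5-fold line were Bmp6 (0.588) and Cacna1b (-0.586), and those just outside it were Tdrp (0.583) and Mpp2 (-0.584). The upper tail was longer than the lower one: the highest gene had 2.78 and the lowest -1.23. On the salivary array with unstimulated rats the counts were larger, with 98 genes 2-fold higher (0.931%) and 107 lower (1.02%). On the striatal light-touch array they were 9 (0.0831%) and 9 (0.0831%). At 1.5-fold in either direction, 1.62% of genes passed on the salivary light-touch array, against 1.36% on the striatal one (0.812% higher and 0.545% lower) and 13.2% on the leukocyte one (8.09% higher and 5.06% lower). On the leukocyte array 1.44% were 2-fold higher and 0.275% lower.

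**Figure D1:**
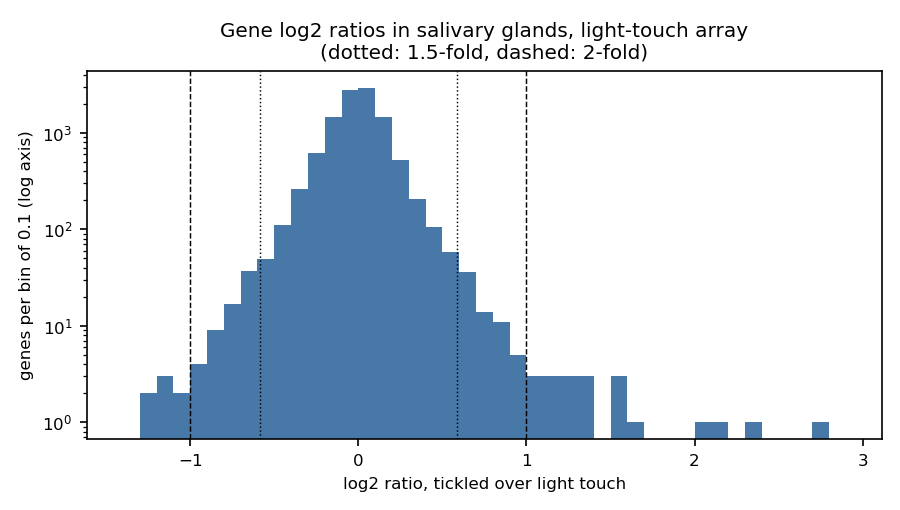
Number of genes (log axis) per bin of log2 ratio, tickled over light touch, on the salivary light-touch array, with dotted lines at 1.5-fold and dashed lines at 2-fold. Most of the 10716 genes lie within the dotted lines, and the tail to the right reaches 2.78 while the tail to the left ends at -1.23.

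The promoters of 3 secreted-protein genes that were 2-fold or more higher, Crisp3, Bpifa2 and Amy1, and of 2 clock genes that lay on opposite sides of 0, Nr1d1 and Bmal1, are printed here as the 250 bases before the annotated start, 5′ to 3′ on the gene's strand, from RefSeq on GRCr8. Capitals mark TATAAA on the gene's strand (the string of a TATA box) and CACGTG (the E-box that CLOCK and BMAL1 bind). They also mark AGGTCA on either strand (the half-site of many nuclear receptors, REV-ERB among them). Crisp3 lies at chr9:27928341-27928590, plus strand, Bpifa2 at chr3:162953288-162953537, plus strand, Amy1 at chr2:204085911-204086160, minus strand, Nr1d1 at chr10:84229455-84229704, minus strand, and Bmal1 at chr1:176766078-176766327, plus strand.
Crisp3: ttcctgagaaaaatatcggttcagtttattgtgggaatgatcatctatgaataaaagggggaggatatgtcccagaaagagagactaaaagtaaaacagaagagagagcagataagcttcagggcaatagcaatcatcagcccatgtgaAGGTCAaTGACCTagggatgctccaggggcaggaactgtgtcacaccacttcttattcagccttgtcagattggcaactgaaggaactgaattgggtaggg
Bpifa2: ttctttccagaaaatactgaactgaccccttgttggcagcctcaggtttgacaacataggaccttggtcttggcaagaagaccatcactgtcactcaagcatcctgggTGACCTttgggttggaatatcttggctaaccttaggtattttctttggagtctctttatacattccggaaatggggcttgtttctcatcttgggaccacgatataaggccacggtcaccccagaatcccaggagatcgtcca
Amy1: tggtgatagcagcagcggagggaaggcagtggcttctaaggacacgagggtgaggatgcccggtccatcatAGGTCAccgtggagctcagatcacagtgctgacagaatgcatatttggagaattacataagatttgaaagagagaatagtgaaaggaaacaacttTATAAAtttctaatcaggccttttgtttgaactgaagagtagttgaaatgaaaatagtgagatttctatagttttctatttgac
Nr1d1: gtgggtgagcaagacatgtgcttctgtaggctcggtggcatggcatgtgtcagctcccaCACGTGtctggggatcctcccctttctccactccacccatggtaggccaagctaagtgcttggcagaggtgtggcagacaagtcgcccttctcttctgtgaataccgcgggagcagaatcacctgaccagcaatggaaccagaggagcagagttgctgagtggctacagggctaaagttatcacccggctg
Bmal1: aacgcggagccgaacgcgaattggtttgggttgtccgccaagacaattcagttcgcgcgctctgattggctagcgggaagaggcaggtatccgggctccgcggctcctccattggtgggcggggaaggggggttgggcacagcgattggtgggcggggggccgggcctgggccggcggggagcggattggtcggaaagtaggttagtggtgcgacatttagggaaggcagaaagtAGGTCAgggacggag
Crisp3 had 2 AGGTCA matches, 1 on each strand, and Bpifa2 and Amy1 had 1 each. Amy1 also had 1 TATAAA. Nr1d1 has 2 annotated starts; the one shown held 1 CACGTG and the other none, and Bmal1 held 1 AGGTCA next to its start. Among 33469 rat promoters of the same length, 14.1% held AGGTCA, 8.06% TATAAA and 5.59% CACGTG. The sequences shown were chosen with their matches known. In all, 17 promoters of 15 genes described here were searched: 6 held AGGTCA, 2 TATAAA, 1 CACGTG and 9 none of the 3. Those with none belong to Adipoq, Tfrc, Dbp, Npas2, Nfil3, Cry2, Clock (both of its starts) and the other Nr1d1 start. A match is a string of letters and was not tested as a binding site. Car3 and Cry1 are not shown.

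The highest genes in tickled glands included several that encode secreted proteins. Crisp3, which encodes a cysteine-rich secretory protein found in saliva, had the highest ratio of all genes at 2.78, or 6.86-fold. Bpifa2, the gene of parotid secretory protein, was 4.97-fold higher (2.31). Amy1, the salivary amylase gene, was 2.62-fold higher (1.39), and Scgb1d4, a secretoglobin, had 1.39 as well. Each of these 4 values rests on 1 probe, and Crisp3 and Scgb1d4 had no value on the no-stimulus array.

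The parotid acinar list did not follow its leading members. Of 15 measured genes, 3 were 1.5-fold higher (Bpifa2, Amy1 and Prpmp5) and 0 lower, where 0.877% of all genes were higher and 0.747% lower, and the other 12 lay between the 1.5-fold lines. The list's median was 0.04, against -0.00 for all genes. Prpmp5, a proline-rich protein gene, had a median of 1.17 that stands for no probe, since its 2 probes had 2.43 and -0.10. Over no stimulus it had 1.51, from the second of these probes alone. Car6, the secreted carbonic anhydrase, had -0.03, Lpo, the peroxidase of saliva, 0.03, and Pip, prolactin-induced protein, -0.01. The transcription factor gene Bhlha15, which shapes enzyme-secreting cells, had 0.04, and the water channel gene Aqp5 of acinar cells had -0.09. Other proline-rich protein genes were also near 0, with 0.13 for Prp2 and -0.10 for Prp15. Among 8 genes of the BPI-fold family, Bpifa2 was the single one past 1.5-fold. Bpifa2f, its close relative, had 0.32 over light touch and -5.93 over no stimulus, so the 2 relatives were far apart on both arrays.

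No measured member of the submandibular duct lists was 1.5-fold apart between tickled and light-touched glands, which at a share of 1.62% of all genes is near what lists of this size hold. Of 11 kallikrein genes measured, 0 passed 1.5-fold either way, with log2 ratios between -0.32 and 0.23. All but Klkb1, which encodes plasma kallikrein and is no salivary member, were below 0. The median of the list was -0.19, small beside the median of 2.01 that the 10 members valued on both salivary arrays had over no stimulus. The Klk1 genes are close paralogs, so their probes may share signal. None of 8 granular duct growth factor and peptide genes passed 1.5-fold. Smr3a, the gene of a prohormone, had 0.50, Cyss (cystatin S) -0.35 and Nrg1 (neuregulin) -0.41. Of 7 mucous acinar genes 0 passed, with Cgref1 at -0.32 and Spdef, a transcription factor of mucous cells, at -0.17.

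Of 19 ion and water transport genes, 1 was 1.5-fold higher and 0 lower, against 0.877% and 0.747% of all genes. It was Aqp8, a water channel gene, with 0.83 and no value on the no-stimulus array. Aqp1, the water channel of blood vessels, had 0.44, while Atp1b1, a subunit of the sodium pump, had -0.48. None of the other 18 members passed. Car4, a membrane-bound carbonic anhydrase outside the list, was 2.23-fold higher over light touch (1.15) and had -0.00 over no stimulus. Of 14 receptors for autonomic transmitters and related signals, 1 passed, against 1.62% of all genes: Chrm1, a muscarinic acetylcholine receptor gene of salivary glands, had 0.86 over light touch and -0.06 over no stimulus. Chrm3, the main muscarinic receptor gene of fluid secretion, had -0.09, the beta-1 adrenergic receptor gene Adrb1 had -0.35, and Vipr1, a receptor for vasoactive intestinal peptide, had 0.36.

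A few fat markers were among the highest genes, while most of the adipocyte list lay near 0. Car3, the carbonic anhydrase gene abundant in fat and muscle, was 3.06-fold higher in tickled than in light-touched glands (1.61), the resistin gene Retn was 2.90-fold higher (1.53) and the adiponectin gene Adipoq 2.51-fold higher (1.33). Lepr, the leptin receptor gene, had 0.81, and Nnat, the neuronatin gene, had 0.78. Of 28 adipocyte genes measured, 3 were 1.5-fold higher, 1 lower and 24 in between, where 0.877% of all genes were higher and 0.747% lower. The list's median was 0.06. Over 13 of its genes it was 0.03 as deposited and -0.08 after each gene's median in the other tissues was taken off. That step needs a value on 3 or more of the 4 arrays of other tissues. Car3, Retn, Adipoq and Gpd1, the members past 1.5-fold, lack these and are not among the 13. The member that was lower is Gpd1, the glycerol 3-phosphate dehydrogenase of triglyceride synthesis (-0.60). Members below 0 also included Slc2a4, the insulin-regulated glucose transporter gene (-0.39), Scd, a fatty acid desaturase gene (-0.37), the angiotensinogen gene Agt (-0.30), Cebpa, a transcription factor gene of adipocytes (-0.21), and Gpam, an enzyme gene of triglyceride synthesis (-0.20). Fabp4, the fatty acid binding protein of adipocytes, had 0.34, Trarg1, a partner of the insulin-regulated glucose transporter, 0.57, Cfd (adipsin) 0.11, Cidec, a lipid droplet protein, -0.07, and Lipe, the hormone-sensitive lipase gene, 0.07. Of 24 genes of fatty acid synthesis and lipolysis, 0 passed 1.5-fold and the median was 0.00. Among 9 skeletal muscle genes 0 passed either, with the myoglobin gene Mb at -0.08 and Acta1, skeletal actin, at -0.10. The part of fat in the values of Car3, Retn and Adipoq was not tested.

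Several genes of the parotid and fat lists, though not Prpmp5, had the opposite sign on the second salivary array, where 309 genes (2.94%) were 1.5-fold higher and 288 (2.74%) lower, 5.67% in all. Genes 1.5-fold higher over light touch and 1.5-fold lower over no stimulus were Car3 (1.61 and -1.68), Adipoq (1.33 and -1.52), Amy1 (1.39 and -1.47), Lepr (0.81 and -1.22), Retn (1.53 and -1.11), Nnat (0.78 and -0.68) and Bpifa2 (2.31 and -0.59). Gpd1 was the one gene the other way round, with -0.60 over light touch and 0.60 over no stimulus. Among genes valued on both salivary arrays, 82 were 1.5-fold higher over light touch and 57 lower, so such reversals were few. Over features with a value on both, the correlation of the 2 salivary arrays was 0.41. That of the salivary light-touch array with the striatal light-touch and no-stimulus arrays was 0.27 and 0.26. Both arrays carry tickled RNA in the same dye, and the sources do not say whether it came from the same extract.

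**Figure D2:**
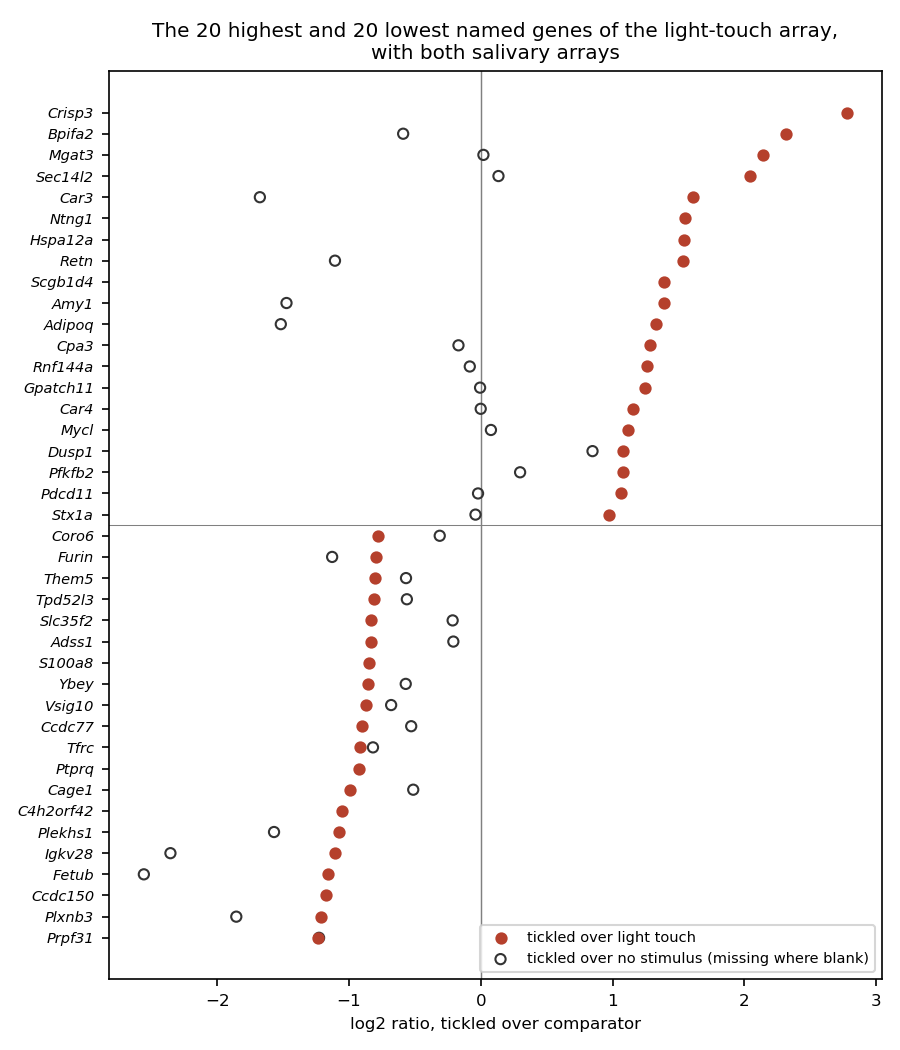
Log2 ratios of the 20 highest and 20 lowest genes of the salivary light-touch array (filled points, tickled over light touch) with the same genes on the salivary no-stimulus array (open points, tickled over no stimulus; absent where blank). Car3, Retn, Amy1, Adipoq and Bpifa2 have open points left of 0, while Mgat3, Gpatch11, Car4 and Stx1a have open points near 0.

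Other genes were high over light touch and near 0 over no stimulus. Mgat3, Gpatch11, Mycl, Stx1a and Slc17a7 were picked as genes nearest 0 there, so that trait was set by the choice. Values near 0 were common on that array, where the median absolute deviation of all genes was 0.13. Mgat3, which encodes the enzyme that adds the bisecting sugar to N-glycans, was 4.41-fold higher over light touch (2.14) and had 0.02 over no stimulus. Sec14l2, a lipid-binding protein gene, was 4.12-fold higher (2.04) and had 0.13 over no stimulus. Rnf144a, a ubiquitin ligase gene, had 1.26 and -0.08, Gpatch11 had 1.25 and -0.00, and Mycl, of the MYC family, had 1.12 and 0.08. Stx1a, the syntaxin of nerve terminals, had 0.97 and -0.04, and Slc17a7, a vesicular glutamate transporter gene, 0.79 and -0.06. All of these are single-probe genes. Ntng1, the gene of the axon guidance protein netrin G1 (1.55), and Hspa12a, a distant relative of the HSP70 chaperones (1.54), had no value on the no-stimulus array.

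Among the genes lower over light touch, some were lower still over no stimulus and others were near 0 there. Plxnb3, a semaphorin receptor gene, had -1.21 over light touch and -1.85 over no stimulus, Fetub, which encodes the protease inhibitor fetuin-B, -1.16 and -2.56, and Plekhs1 -1.07 and -1.57. The immunoglobulin kappa segment Igkv28 ran the same way, with -1.10 and -2.35. Plasma cell genes on the same array were less far from 0: Mzb1 had -0.15 and Irf4, a transcription factor of plasma cells, -0.38, and of 13 B and plasma cell genes 0 passed 1.5-fold. Furin, which encodes a protease that activates proproteins in the secretory pathway, had -0.79 and -1.13. Lower genes picked as nearest 0 over no stimulus included Rbpms2 (-0.78 and 0.13), Klhdc1 (-0.66 and 0.20) and Lrsam1 (-0.67 and -0.02). Rab3b (-0.67 and 0.06), Hbegf (-0.64 and 0.07) and Cdyl (-0.60 and 0.05) were picked in the same way. S100a8, a subunit of neutrophil calprotectin, had -0.85 over light touch, while its partner S100a9 had -0.01. Prpf31, a splicing factor gene, was the lowest of all at -1.23 and had -1.23 over no stimulus, -1.35 and -1.57 on the striatal light-touch and no-stimulus arrays, so its ratio was nearly alike on every array with a value. Tickled RNA carried Cy5 on all of them, and a dye effect of its single probe cannot be told apart from a difference between animals.

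Tfrc, the gene of the transferrin receptor through which cells take up iron, was the best supported difference of the array. Its 5 probes had -1.02, -0.94, -0.92, -0.83 and -0.60 over light touch, all past 1.5-fold, with a median of -0.92, so it was 1.89-fold lower in tickled glands. Over no stimulus the same probes had -1.13, -0.82, -0.78, -0.82 and -0.62. On the striatal arrays its median was 0.03 and -0.02, over light touch and no stimulus, and on the leukocyte arrays 0.09 and -0.40. Less its median on the arrays of the other tissues, its salivary ratio over light touch was -0.92 as well. Other genes of iron handling were closer to 0, with 0.04 for Fth1 and -0.14 for Ftl1 (the ferritin chains), -0.21 for the iron exporter gene Slc40a1, and 0.18 and 0.09 for the iron-sensing RNA-binding proteins Aco1 and Ireb2. These 5 were chosen after their values were seen.

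Agreement between probes was the only measure of error at hand. In 3732 genes with 2 or more probes the median standard deviation between probes was 0.09, and the 95th percentile 0.38. Of these genes 9 (0.241%) were 1.5-fold apart, against 165 of 6984 genes with 1 probe (2.36%). At the level of probes the 2 classes were nearer, since 156 of 9101 probes (1.71%) of the first class were past 1.5-fold. Of those 156 probes, 11 had a second probe of the same gene past 1.5-fold in the same direction, and they belonged to 4 genes: Tfrc, Srp14, Lims1 and Ppp2r2b, the last 2 with medians of -0.32 and -0.52. Tfrc was the single gene of the 3732 with all its probes past 1.5-fold.

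The other multi-probe genes past 1.5-fold were split. Srp14, a subunit of the signal recognition particle, had -0.77, -0.74 and -0.02 on its 3 probes. Pdcd11 had 2.07 and 0.05, Pfkfb2, a regulator of glycolysis, 1.94 and 0.22, Coro2a 1.54 and -0.13, Esam, an endothelial adhesion molecule, 1.19 and 0.09, and Serpinb1a, a neutrophil elastase inhibitor, 1.12 and 0.07. The widest gaps were in genes whose median stayed near 0: Irs2, an insulin receptor substrate, had 2.53, -0.17 and -0.35, and Slc7a6os had 2.59, 0.04 and -0.05. On the no-stimulus array the probe of Irs2 that read 2.53 had 0.28, and that of Slc7a6os that read 2.59 had 0.01. The genes named above with 1 probe have no such check.

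**Figure D3:**
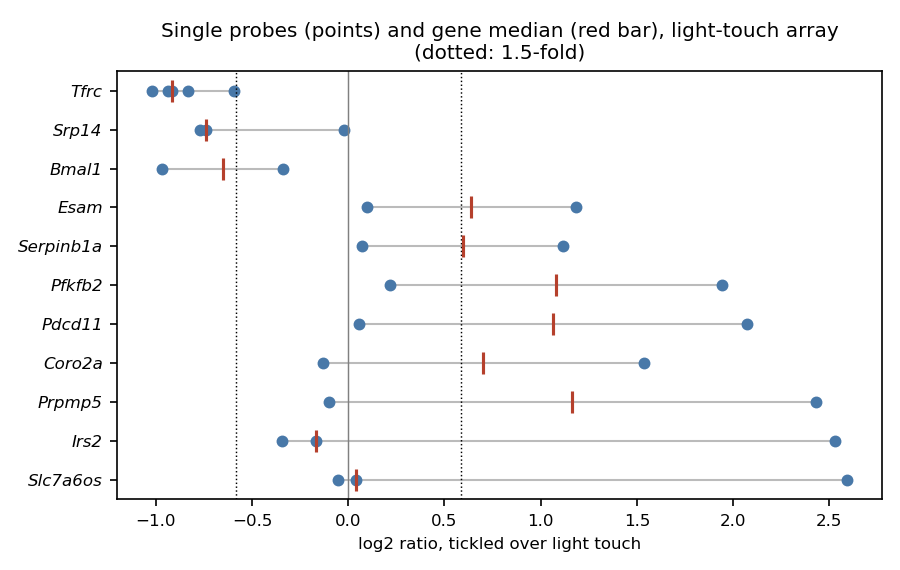
Log2 ratios, tickled over light touch, of the single probes (points) of 11 genes with several probes on the salivary light-touch array, with the gene median (red bar) and dotted lines at 1.5-fold. The 5 probes of Tfrc lie together left of the dotted line, while in Prpmp5, Coro2a, Irs2 and Slc7a6os 1 probe is past 1.5-fold and the rest lie near 0 or below it.

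Clock genes of opposite phase lay on opposite sides of 0. In the circadian clock, CLOCK or NPAS2 with BMAL1 drive genes such as Nr1d1, Nr1d2 and Dbp, and the REV-ERB repressors encoded by Nr1d1 and Nr1d2 act back on Bmal1. Nr1d1 was 1.57-fold higher over light touch (0.65), with Dbp at 0.53 and Nr1d2 at 0.50, both just under 1.5-fold. Bmal1 was lower (-0.65, from 2 probes at -0.97 and -0.34), as was Nfil3, a repressor that opposes DBP (-0.59), and Npas2 had -0.43, Cry1 -0.35 and Clock -0.27. Cry2 had 0.35, Tef 0.12, Bhlhe40 0.11, Per1 -0.09 and Per2 0.00. Of 13 genes 1 was 1.5-fold higher and 2 lower, where 0.877% of all genes were higher and 0.747% lower. Over no stimulus, Nr1d1 had 1.07, Dbp 0.65, Nr1d2 0.54, Bmal1 -0.67, Nfil3 -0.38 and Npas2 -0.86. The Bmal1 value there rests on 1 probe, the one that had -0.97 over light touch. Bmal1 was below 0 on all 6 arrays, with -0.35 and -0.18 in striatum and -0.67 and -0.73 in leukocytes (over light touch and over no stimulus). After its median in those tissues was taken off, its salivary ratio over light touch was -0.15. In striatum, in the same order, Nr1d1 had 0.20 and 0.17, Dbp 0.33 and 0.19, and Nr1d2 0.63 and 0.05. Nfil3 had -0.28 and -0.22 there, and Npas2 -0.11 and -0.05. In leukocytes Dbp had -0.04 and -0.24, and Nfil3 had -0.40 over light touch. The sources do not give the hour at which each group was sampled.

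**Figure D4:**
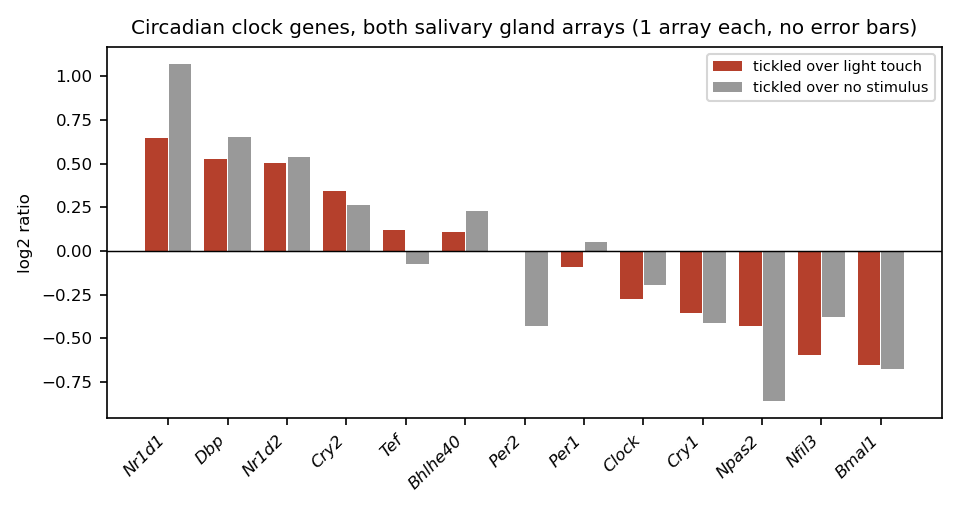
Log2 ratios of 13 circadian clock genes on the salivary light-touch array (red bars, tickled over light touch) and the salivary no-stimulus array (grey bars, tickled over no stimulus), with 1 array each and no error bars. Nr1d1, Dbp and Nr1d2 are above 0 on both arrays, and Bmal1, Nfil3, Npas2, Cry1 and Clock are below 0 on both.

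Glucocorticoid-responsive genes leaned to the positive side. Of 16 measured, 1 was 1.5-fold higher and 0 lower, where 0.877% of all genes were higher and 0.747% lower. Above 0 were 12 (75.0%, against 50.0% of all genes), and the median was 0.09. Dusp1, which encodes a phosphatase that switches off MAP kinases, was 2.12-fold higher over light touch (1.08) and had 0.85 over no stimulus, with -0.03 and -0.02 in striatum. Zbtb16, a transcription factor gene induced by glucocorticoids, had 0.56, and Fkbp5, a co-chaperone of the glucocorticoid receptor, had 0.44, with its 3 probes at 0.49, 0.44 and 0.28. Others were near 0, such as Sgk1 (0.00) and Per1 (-0.09). Over 9 of the 16 the median was 0.14 as deposited and 0.09 after each gene's median in the other tissues was taken off. Dusp1 and Zbtb16 had too few values there to be among the 9. Of 19 immediate early genes 0 passed 1.5-fold, with Fos at 0.40, Egr1 at 0.24 and Nr4a2 at -0.25.

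Mast cell genes had the highest median of the 35 lists, 0.35 over 6 genes. Cpa3, the carboxypeptidase of mast cell granules, was 2.44-fold higher over light touch (1.28) and had -0.17 over no stimulus. The chymase gene Cma1 had 0.45, with probes at 0.56 and 0.34, Hdc, which makes histamine, 0.52, and Tpsb2, a tryptase gene, 0.24. Tpsab1, the other tryptase gene, had -0.00 and the receptor gene Kit 0.03. Mcpt1l1, annotated next to the mast cell proteases, was chosen after its value was seen and had 0.82 over light touch and -0.16 over no stimulus. Taking off each gene's median in the other tissues was possible for 3 members, Hdc, Tpsb2 and Tpsab1. Their median was 0.06 after this step, against 0.24 for the same genes as deposited. Cpa3, Cma1 and Kit were not part of it, and their ratios were not tested in this way.

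Medians of the other stromal and immune lists stayed small. Endothelial genes had a median of 0.14, with 14 of 16 above 0 and 1 past 1.5-fold, Esam, whose probes disagree. Of all genes 50.0% were above 0 and 1.62% past 1.5-fold. Kdr, a receptor for vascular endothelial growth factor, had 0.19, Cdh5, the endothelial cadherin, 0.23 and Vwf, von Willebrand factor, 0.17. Connective matrix genes had a median of 0.12 with 18 of 25 above 0 and 0 past 1.5-fold, Col1a1 (0.46) and Col1a2 (0.33) leading. Macrophage and dendritic cell genes had a median of 0.13 with 12 of 17 above 0, from Marco, a scavenger receptor, at 0.52 to Cd163 at -0.45. These medians became 0.00 (4 genes), -0.09 (8 genes) and -0.00 (13 genes) once each gene's median in the other tissues was taken off, against 0.15, 0.14 and 0.11 over the same genes as deposited. Of 30 lists treated in this way, 12 medians changed sign. Among them were the erythroid list and the adipocyte list, the latter without Car3, Retn, Adipoq and Gpd1. T cell genes had a median of 0.03 over 18 genes, MHC class II genes -0.05 over 9, interferon-stimulated genes 0.02 over 25, neutrophil genes 0.09 over 9 and erythroid genes -0.13 over 5. Nerve and Schwann cell genes had 0.03 over 8 and myoepithelial genes -0.00 over 10. Lymph node genes had 0.11 over 10 and complement and acute phase genes -0.02 over 11. Neutrophil genes were spread to both sides, from S100a8 (-0.85), the 1 member past 1.5-fold, and Elane (-0.56) to Csf3r (0.53) and Mpo (0.56).

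Of 23 genes of protein folding in the endoplasmic reticulum, 0 passed 1.5-fold and 19 were below 0. Over all genes, 50.0% were above 0 and 1.62% past 1.5-fold. The list's median was -0.11, and its sign turned under the subtraction described next. Hspa5, which encodes the chaperone BiP, had -0.37, Sdf2l1 -0.29, Dnajb11 -0.27 and Hsp90b1 -0.18, while Trib3, a stress-induced pseudokinase gene, had 0.15 and Atf4 0.05. After taking off each gene's median in the other tissues, 17 of them had a median of 0.02, against -0.15 as deposited. Oxidative phosphorylation genes had a median of -0.07, with 23 of 27 below 0 and values between -0.25 (Ndufv1) and 0.24 (Ndufa9), all inside the 1.5-fold lines. That median was -0.05 over 25 genes after the subtraction. Cell cycle genes lay close to 0, with a median of -0.02 over 30 genes and values from -0.25 (Mcm2) to 0.21 (Ccna2), while over no stimulus the same genes had a median of -0.43. Ribosomal protein genes had a median of 0.02 over 23, heat shock genes -0.01 over 17, cholesterol synthesis genes -0.02 over 15, brown fat genes 0.05 over 8 and the reference genes 0.02 over 12, where Tfrc was the 1 member past 1.5-fold. In 24 of the 35 lists 0 members passed 1.5-fold, which at a share of 1.62% of all genes is common in lists of these sizes.

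**Figure D5:**
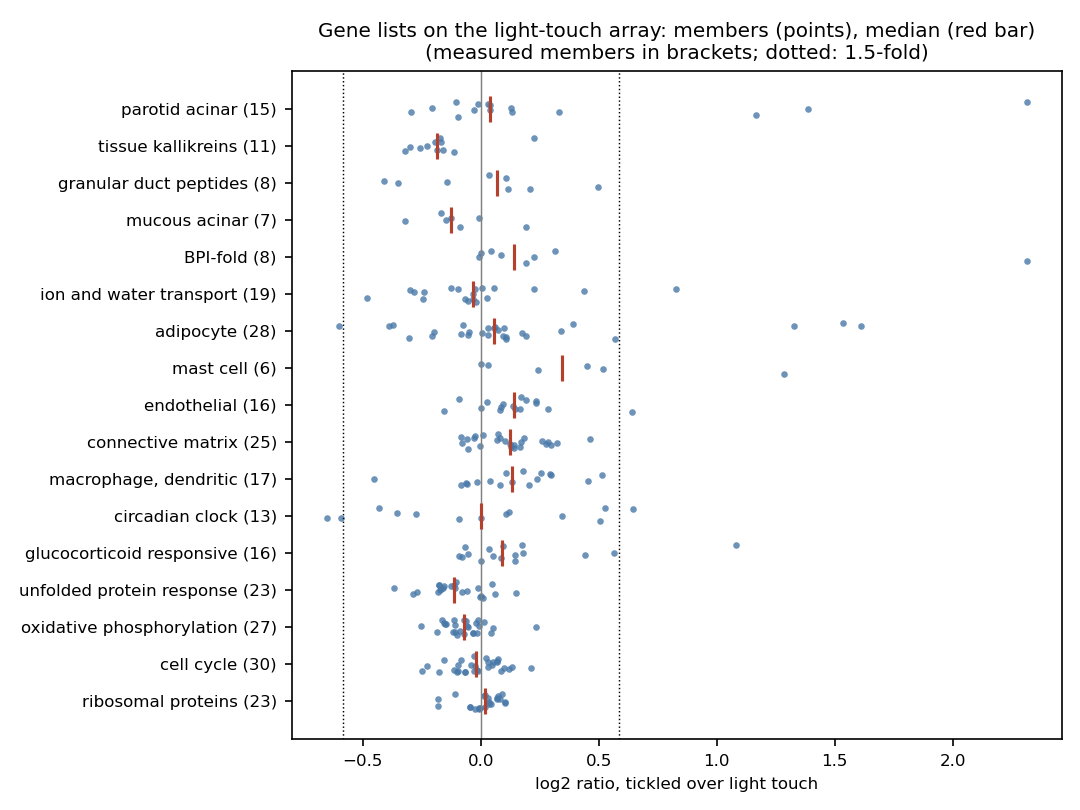
Log2 ratios, tickled over light touch, of the measured members (points) and the median (red bar) of 17 gene lists on the salivary light-touch array, with dotted lines at 1.5-fold. The medians lie near 0, with mast cell genes furthest right at 0.35 and kallikreins furthest left at -0.19, and the parotid acinar and adipocyte lists each have 3 members beyond the right dotted line.

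Genes past 1.5-fold were often genes without a value elsewhere. Of the 174 genes past 1.5-fold in either direction (1.62% of those measured), 35 (20.1%) were blank on the no-stimulus salivary array, against 3.47% of all genes measured here. Likewise 57 of them (32.8%) were blank on all 4 arrays of the other tissues, against 6.68% of all genes. Olfactory receptor genes, had 5 of 191 members 1.5-fold higher and 4 lower, a share of 4.71%. The rule by which the authors left values blank was not analysed here.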

How the data were processed

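RNA of 500 ng per sample was labelled with Cy3 or Cy5, and each array set tickled RNA (Cy5) against its comparator (Cy3), per the labels. The authors deposited 1 log2 ratio per feature and array; Agilent Feature Extraction 9.1 is listed in the submitters' processing notes. No source used here gives the log base, the normalization or the rule for blanks. Base 2 was taken; natural logs are not settled by the values and would make every ratio 1.44 times as large. Direction was taken from the labelled dyes, since the values do not state it. The median over the 26159 features with a value was 0.00. Channel brightness was not used here, and precision is limited by there being 1 array.

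Of 44290 features, 23535 carried exactly 1 symbol in the platform annotation, 48 several and 20707 none. Entrez identifiers matched the RefSeq table (GRCr8) for 23488, and 1 symbol was updated. A gene's value is the median of its probes with 1 symbol (Python 3.11.15, pandas 2.3.3). With 1 array, genes were counted by size at 1.5-fold and 2-fold without a test; the counting was tested on simulated data. The 35 gene lists and the alternatives were chosen with earlier results of these data known. Genes were named by rule: the 20 highest and 20 lowest whose probes share a sign, without locus numbers and olfactory receptors; list members past 1.5-fold and the largest 6 of each list; genes near 0 or of opposite sign on the no-stimulus salivary array; and the 6 with the widest probe gaps. List members that define a list were added. Others outside it (Serpinb1a and other multi-probe genes past 1.5-fold, Lims1, Ppp2r2b, Mcpt1l1, 5 iron genes, and the genes at the 1.5-fold line) were named after their values were seen.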

Additional observations from a re-analysis of the deposited data

Results flagged for a closer look

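Of the genes named, 3 were 1.5-fold or more apart in salivary glands, tickled over light touch, and 1.5-fold or more apart the other way in another tissue on its own light-touch array. Cpa3, the mast cell carboxypeptidase gene, had 1.28 in salivary glands and -0.65 in leukocytes. Ptprq, a receptor phosphatase gene, had -0.93 in salivary glands and 0.80 in leukocytes. Slc17a7, the glutamate transporter gene, had 0.79 in salivary glands and -1.13 in striatum. On the leukocyte light-touch array 13.2% of all genes passed 1.5-fold in either direction, and on the striatal one 1.36%. The 5th and 95th percentiles of the leukocyte array were -0.59 and 0.70. With 1 array per tissue the differences in these 3 genes were not tested.

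Features without exactly 1 gene symbol entered no gene value, yet 10074 of them had a value on the salivary light-touch array. Of these, 35 were 2-fold or more higher and 24 were 2-fold or more lower in tickled glands. The highest had 6.90 over light touch and 4.52 over no stimulus, and the next had 4.57 and 5.20. The lowest had -3.23 over light touch and -0.45 over no stimulus. They are unnamed here.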

How the results depend on the processing

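As reported, 20 genes were 2-fold higher and 7 lower, and 94 were 1.5-fold higher and 80 lower. Using the mean of the probes, centring, the smallest probe, genes valued on both salivary arrays and, chosen after seeing the data, leaving out genes whose probes differ in sign kept each of the 4 counts within 1.5 times. Read as natural logs they were 51, 37, 243 and 229, and scaled to the spread of the no-stimulus salivary array 44, 31, 211 and 193. Only genes with 2 or more probes that share the sign gave 2, 0, 4 and 3, over fewer genes. With the other tissues' median subtracted they were 5, 0, 26 and 20 over 6237 genes, against 5, 0, 11 and 7 for those genes as deposited, so the loss at 2-fold comes from fewer genes. With the smallest probe, Prpmp5 turned to -0.10 and Coro2a to -0.13. The subtraction moved 16 of 30 list medians by more than the median standard deviation between probes, 0.09, over the same genes before and after it; leaving genes with 2 or more agreeing probes moved 7 of 19, partly through fewer genes, and the other settings 1 or 0 of 35. The cause of these moves was not tested. No paired analysis was possible because each comparison has 1 array. Weak signals could not be told from strong ones, since the deposited ratios carry no brightness.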
